A study of Homo sapiens with 12 samples.

Results

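The RNA of 48 genes of the unfolded protein response and of protein folding in the endoplasmic reticulum (ER) was examined, out of 63241 genes in the deposited count tables. The genes were chosen by name for their known function, with earlier results of these data known. They were matched by symbol to the Ensembl identifiers of the tables, and all 48 were found. All 48 also passed the filter on low counts, which left 19373 genes to test. They fall into 7 role groups: 7 sensors and transcription factors, 9 chaperones and cofactors, 3 lectins that fold glycoproteins, 9 enzymes of disulfide bonds, 12 genes of ER-associated degradation, 7 genes of the translocon, the signal peptidase and ER exit, and WFS1, a membrane protein of ER calcium balance.

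The libraries came from the established line MDA-PCa-2b of human prostate cancer, although the growth protocol in the labels also names MDA-PCa-2a. Per the labels there are 4 groups of 3 libraries: NT, a first DHODH knockdown (KD1), a second DHODH knockdown (KD2), and KD2 with a rescue (KDR). DHODH is the mitochondrial dihydroorotate dehydrogenase of pyrimidine synthesis. The labels do not say what NT abbreviates, which construct was used, how the rescue was made, whether a line is 1 clone, or whether the libraries of a group are separate cultures, so the p-values rest on a spread between libraries that may be technical only.

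Proteins that enter the ER fold there with the help of chaperones such as HSPA5 (BiP), lectins that read their sugars, and enzymes that form disulfide bonds, while chains that fail are pulled back to the cytosol and degraded. When unfolded chains build up, sensors in the ER membrane respond. ERN1 (IRE1) splices XBP1 mRNA into the form that encodes an active transcription factor, ATF6 moves to the Golgi and is cut into an active factor, and PERK phosphorylates eIF2α and favours translation of ATF4. ATF6 is known mainly for raising chaperones, and spliced XBP1 for degradation, translocation and secretory capacity. Luminal prostate cells secrete large amounts of protein, and CREB3L4 is known for its high expression in prostate. Splicing of XBP1, cleavage of ATF6 and protein levels cannot be read from counts per gene.

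Total counts per library ran from 23786288 to 38240369, and the 48 genes took 1.141% to 1.319% of them. Replicates differed by a typical coefficient of variation of 15.7% among the NT libraries, against 6.6% for KD1, 7.16% for KD2 and 5.52% for KDR. Without replicate 2, the NT library that stands apart, it came to 8.57%. DHODH RNA averaged 10.5 ± 2.51 counts per 1e6 (CPM) over NT, 10.3 ± 0.674 over KD1, 13.1 ± 1.73 over KD2 and 18.6 ± 0.918 over KDR, given as mean ± SD of 3 libraries. It was not called lower in either knockdown, so every direction given here belongs to the label of a group. All 8 luminal prostate markers were above 5 CPM, and none of 3 basal, 6 fibroblast, 5 immune and 4 endothelial markers reached 5 CPM in any library. The summed luminal markers stood at 12312 to 14851 CPM in NT, 8432 to 8643 in KD2 and 12446 to 12854 in KDR, and their part in the differences described here was not tested. KLK3 was the highest of these markers, at up to 10360 CPM, so the sums weigh on this gene and do not give the direction of each marker.

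ATF6 and spliced XBP1 are known to bind short elements in the promoters of these genes, and the promoters are shown because they let the calls of genes with and without the first element be set side by side further on. The first element is the ER stress element defined below. Of the 7 chaperones called higher in KD2, HSPA5, HSP90B1 and CRELD2 hold it, and HYOU1, DNAJB11, DNAJC3 and MANF have no exact match to it. HYOU1 holds the ER stress element II instead. Windows of 300 bases, from 250 before to 50 after each listed start, were taken from RefSeq (GRCh38.p14), with 44 of the 48 genes matched. SEC24D, PDIA3, DERL1 and DERL3 had no entry. Each window was searched on both strands for the ER stress element (CCAAT, 9 bases, CCACG), the ER stress element II (ATTGG, 1 base, CCACG) and the unfolded protein response element (TGACGTGG). The ER stress element was in 8 of the 44 genes (18.2%) and in 25 of all 27305 genes with an entry (0.0916%). The ER stress element II was in 3 of the 44 (6.82%) and in 19 of all genes (0.0696%), and the third element was in 6 (13.6%) and in 253 (0.927%). The 2 elements of the ER stress type were defined from promoters of genes like these, so their share among the members is background and not a result of these libraries. The windows around the matches are given on the strand of the gene, 5′ to 3′, with the fixed letters of the element in capitals. A match on the other strand reads as CGTGG before ATTGG, or as CGTGG before CCAAT for the second element.
HSPA5 (chr9:125241371-125241429, minus strand): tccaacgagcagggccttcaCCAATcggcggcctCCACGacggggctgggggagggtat
HSP90B1 (chr12:103930196-103930359, plus strand): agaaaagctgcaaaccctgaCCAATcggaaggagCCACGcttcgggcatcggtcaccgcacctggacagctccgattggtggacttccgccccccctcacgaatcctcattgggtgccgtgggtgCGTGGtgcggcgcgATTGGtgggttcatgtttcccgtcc
CALR (chr19:12938364-12938422, plus strand): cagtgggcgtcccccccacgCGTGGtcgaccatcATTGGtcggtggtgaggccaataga
CANX (chr5:179698758-179698816, plus strand): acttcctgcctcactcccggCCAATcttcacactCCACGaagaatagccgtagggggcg
CRELD2 (chr22:49918534-49918592, plus strand): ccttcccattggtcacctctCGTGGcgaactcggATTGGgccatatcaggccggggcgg
PDIA6 (chr2:10812833-10812891, minus strand): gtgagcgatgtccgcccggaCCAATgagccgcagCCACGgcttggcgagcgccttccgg
XBP1 (chr22:28800583-28800641, minus strand): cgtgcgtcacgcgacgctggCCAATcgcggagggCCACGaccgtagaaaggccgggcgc
ERO1B (chr1:236282163-236282208, minus strand): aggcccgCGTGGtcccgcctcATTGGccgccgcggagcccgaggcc
HYOU1 (chr11:119057254-119057410, minus strand): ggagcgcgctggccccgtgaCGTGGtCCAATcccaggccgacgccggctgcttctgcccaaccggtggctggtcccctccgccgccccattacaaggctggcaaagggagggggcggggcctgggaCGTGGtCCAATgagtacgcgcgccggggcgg
HERPUD1 (chr16:56932005-56932055, plus strand): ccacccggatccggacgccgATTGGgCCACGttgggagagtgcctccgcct

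HSP90B1 holds the ER stress element at 2 places, on opposite strands, and CANX holds its match in the windows of 3 listed starts. HYOU1 holds the ER stress element II at 2 places, of which 1 overlaps an unfolded protein response element. HERPUD1 has 1 such match, and so does SDF2L1. A match is a string of letters in a window and no evidence of binding in these cells. Only exact strings were searched, so a variant of an element, or one outside the window, counts here as absent.

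**Figure D1:**
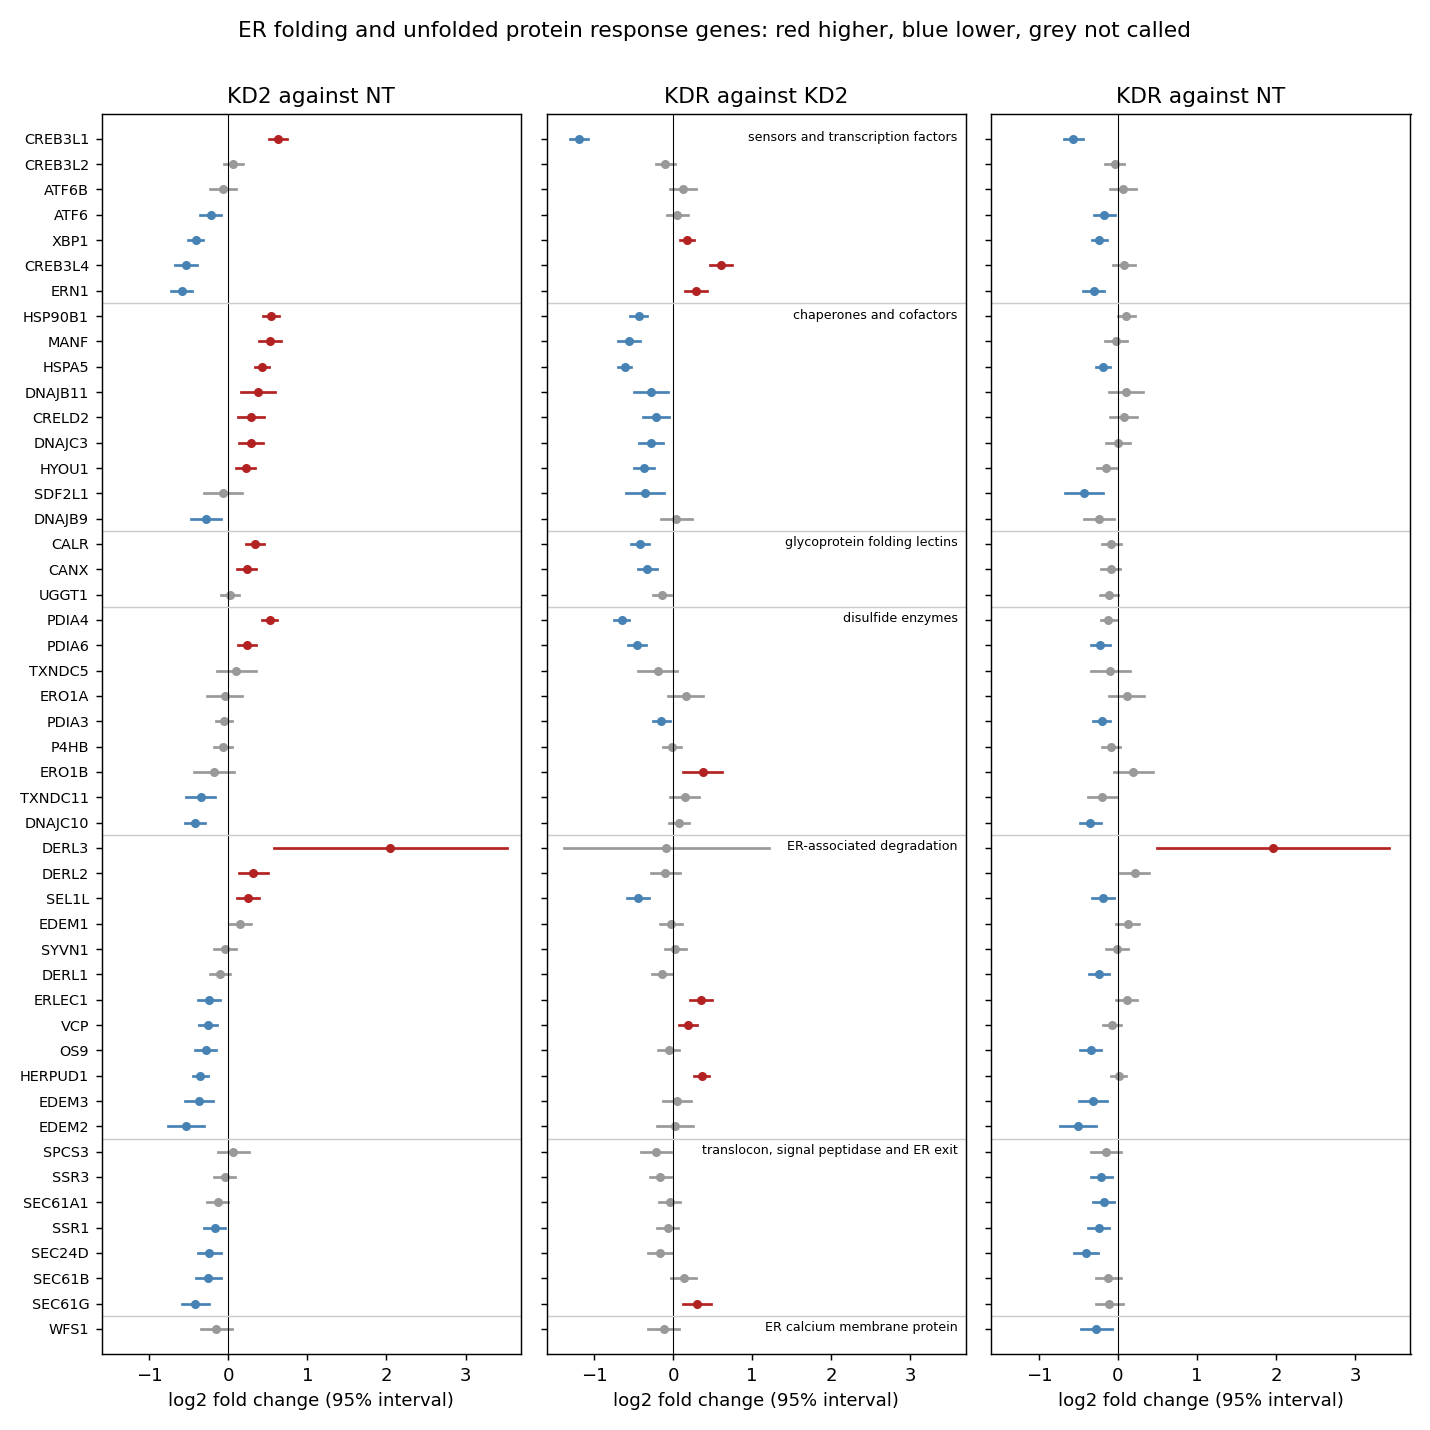
Log2 fold change (x axis) of each of the 48 genes (rows, by role group) in KD2 against NT, KDR against KD2 and KDR against NT, with 95% intervals from the edgeR model and called genes in red (higher) or blue (lower). Most chaperones and CALR and CANX are red on the left and blue in the middle, while most called degradation and translocon genes are blue on the left.

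In the libraries labelled KD2, 7 of the 9 chaperones of the ER rose, while the sensors, degradation genes and translocon genes that changed mostly fell. Of the 48 genes, 15 were called higher and 17 lower in KD2 than in NT, and 16 were not called, where a gene is called at an adjusted p under 0.05 (edgeR quasi-likelihood test, Benjamini-Hochberg over all genes tested). Among all genes tested, 17.8% were called higher and 18.2% lower. Chaperones and cofactors had 7 of 9 genes higher and 1 lower, the lectins 2 of 3 higher, the disulfide enzymes 2 higher and 2 lower of 9, the degradation genes 3 higher and 6 lower of 12, the translocon group 4 of 7 lower, and the sensors and factors 1 higher and 4 lower of 7. The median log2 fold change was -0.06 over the 48 genes and -0.0099 over all genes tested. In bulk RNA, fewer cells of a type and less RNA per cell cannot be told apart. Without NT replicate 2, 14 were called higher and 21 lower, and the disulfide enzymes then had 5 lower in place of 2.

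HSPA5 (BiP, ENSG00000044574, chromosome 9, 125234853 to 125241382 on GRCh38) is the central Hsp70 chaperone of the ER and holds the sensors inactive while it is free. Its libraries stood at 1171, 1202 and 1282 CPM in NT, 1161, 1181 and 1207 in KD1, 1651, 1639.5 and 1621 in KD2 and 1080.0, 1067 and 1059 in KDR, with library sizes scaled by the trimmed mean of M values. The 3 KD2 libraries lay above all the others, and the 3 KDR libraries lay below all the others. The log2 fold change was 0.43 (95% interval 0.34 to 0.51, adjusted p = 3.0e-08) in KD2 against NT, -0.62 (95% interval -0.70 to -0.53, adjusted p = 9.4e-11) in KDR against KD2 and -0.19 (95% interval -0.28 to -0.10, adjusted p = 0.0017) in KDR against NT.

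HSP90B1 (GRP94, ENSG00000166598, chromosome 12, 103930107 to 103953931) is the Hsp90 of the ER. It stood at 684, 619 and 725 CPM in NT, 674, 662 and 684 in KD1, 1004, 981 and 968 in KD2 and 712, 738 and 732 in KDR. The KD2 libraries again lay above all others, while the KDR libraries reached into the range of NT. The level rose by 0.54 (95% interval 0.44 to 0.65, adjusted p = 1.1e-08) in KD2 and fell by 0.44 from KD2 to KDR (adjusted p = 4.5e-07), and KDR differed from NT by 0.11 (adjusted p = 0.13).

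MANF (ENSG00000145050, chromosome 3, 51385291 to 51389397), a secreted cofactor that binds HSPA5, stood at 87.8, 104 and 88.4 CPM in NT, 95.5, 96.8 and 93.3 in KD1, 131, 133 and 141 in KD2 and 94.7, 89.7 and 91 in KDR. Only the KD2 libraries left the range of the others. The rise in KD2 was 0.53 (95% interval 0.39 to 0.67, adjusted p = 1.4e-06), the change from KD2 to KDR was -0.56 (adjusted p = 9.1e-07), and KDR against NT gave -0.03 (95% interval -0.17 to 0.11, adjusted p = 0.81).

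SDF2L1 (ENSG00000128228, chromosome 22, 21642302 to 21644299), a partner of the ER J-domain proteins, went another way. It stood at 48.3, 70.9 and 58.9 CPM in NT, 55, 49.2 and 51.8 in KD1, 47.2, 56.3 and 67.3 in KD2 and 44.2, 43.3 and 45.1 in KDR. NT and KD2 overlapped, and the 3 KDR libraries lay below all others. KD2 differed from NT by -0.06 (95% interval -0.30 to 0.17, adjusted p = 0.71), and KDR stood below NT by -0.43 (adjusted p = 0.0077) and below KD2 by -0.36 (adjusted p = 0.019). The difference between KDR and NT was -0.28 (adjusted p = 0.0154) without NT replicate 2. The call against KD2 was lost without KD2 replicate 3, without KDR replicate 1 and without KDR replicate 2, with adjusted p-values up to 0.161.

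The other chaperones moved less. The J-domain cofactors DNAJB11 (log2 fold change 0.38 (adjusted p = 0.0055)) and DNAJC3 (0.28 (adjusted p = 0.004)), the folding factor CRELD2 (0.28 (adjusted p = 0.0067)) and the Hsp110-type exchange factor HYOU1 (0.22 (adjusted p = 0.0046)) rose in KD2 against NT. DNAJB9, the J-domain cofactor that returns HSPA5 to ERN1, was the 1 chaperone called lower, by -0.28 (adjusted p = 0.019), and its KD2 and NT libraries overlapped. NT replicate 2 had the lowest level of NT for DNAJB11 (36.7 CPM), DNAJC3 (168 CPM) and DNAJB9 (54.1 CPM). Without it, DNAJB11 rose by 0.21 (adjusted p = 0.00918) and DNAJC3 by 0.16 (adjusted p = 0.00163). The DNAJB9 call was lost in 5 of 18 alternatives, among them without NT replicate 1, NT replicate 3, KD2 replicate 2 and KD2 replicate 3 (adjusted p up to 0.119). The CRELD2 call was lost without NT replicate 1 (adjusted p = 0.0553).

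CALR (ENSG00000179218, chromosome 19, 12938578 to 12944489), the soluble lectin that holds glycoproteins during folding and stores calcium, had the highest level per length of the 48 genes in every group. Its libraries stood at 1103, 1326 and 1087 CPM in NT, 1127, 1073 and 1105 in KD1, 1452, 1486 and 1508 in KD2 and 1078, 1139 and 1105 in KDR. The KD2 libraries lay above all others, and NT replicate 2 was the highest outside KD2. CALR rose by 0.34 (95% interval 0.22 to 0.46, adjusted p = 5.5e-05) in KD2 and changed by -0.42 (adjusted p = 4.4e-06) from KD2 to KDR. CANX, its membrane-bound relative, rose by 0.23 (adjusted p = 0.0027) and then changed by -0.32 (adjusted p = 1.1e-04). The rise of CANX was 0.14 (adjusted p = 0.000363) without NT replicate 2. UGGT1, which tags misfolded glycoproteins for another round, was not called in any comparison (KD2 against NT 0.02 (95% interval -0.09 to 0.14, adjusted p = 0.79)).

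Among the disulfide enzymes, 2 thioredoxin-fold isomerases rose. PDIA4 (ERp72, ENSG00000155660, chromosome 7, 149003062 to 149028662) stood at 367, 383 and 373 CPM in NT, 375, 356 and 357 in KD1, 539.8, 540.1 and 537 in KD2 and 344, 343 and 344 in KDR. All KD2 libraries lay above and all KDR libraries below the others, and the libraries of each of these groups lay close together. PDIA4 rose by 0.53 (95% interval 0.43 to 0.62, adjusted p = 3.7e-09) in KD2 and fell by 0.65 from KD2 to KDR (adjusted p = 1.4e-10), and KDR against NT just missed the threshold at -0.12 (adjusted p = 0.051).

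PDIA6 (P5, ENSG00000143870, chromosome 2, 10783391 to 10837977), which acts on clients of HSPA5 and on the sensors, stood at 243, 262 and 251 CPM in NT, 225, 246 and 238 in KD1, 301, 305 and 286 in KD2 and 204, 216 and 229 in KDR. The KD2 libraries were the highest of the 12. The changes were 0.24 (adjusted p = 0.0019) in KD2 against NT, -0.46 (adjusted p = 1.2e-06) in KDR against KD2 and -0.22 (adjusted p = 0.0051) in KDR against NT, the last of which was lost without KDR replicate 1 (adjusted p = 0.0512). Of the exon bases of PDIA6, 25.2% overlap ATP6V1C2, and the counting did not use strand.

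DNAJC10 (ERdj5, ENSG00000077232, chromosome 2, 182716255 to 182794464), the reductase that opens disulfides ahead of degradation, stood at 407, 333 and 407 CPM in NT, 404, 395 and 410.0 in KD1, 288, 290.1 and 277 in KD2 and 289, 303 and 308 in KDR. Every KD2 and KDR library lay below every NT and KD1 library, and NT replicate 2 was the lowest of NT. It fell in KD2 against NT, with -0.42 (95% interval -0.55 to -0.29, adjusted p = 1.0e-05), and it stayed lower in KDR than in NT, with -0.35 (adjusted p = 1.7e-04), while KDR and KD2 differed by 0.07 (95% interval -0.06 to 0.20, adjusted p = 0.4). TXNDC11 also fell in KD2, by -0.35 (adjusted p = 0.0031), or by -0.22 (adjusted p = 0.0095) without NT replicate 2.

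ERO1B (ENSG00000086619, chromosome 1, 236214681 to 236282019), an oxidase that recharges the isomerases, stood at 38.8, 24.3 and 37.1 CPM in NT, 37.2, 38.5 and 40.6 in KD1, 31.1, 28.5 and 28.7 in KD2 and 34.9, 39.6 and 40.1 in KDR. NT replicate 2 was the lowest of the 12 libraries, and the KDR libraries lay above the KD2 libraries. It was not called in KD2 against NT (-0.18 (95% interval -0.43 to 0.07, adjusted p = 0.27)) and rose from KD2 to KDR by 0.37 (adjusted p = 0.02). That call was lost without KD2 replicate 2, KD2 replicate 3, KDR replicate 2 or KDR replicate 3 (adjusted p up to 0.0801). Without NT replicate 2, ERO1B was called lower in KD2 than in NT, by -0.37 (adjusted p = 0.000342). PDIA3, P4HB, ERO1A and TXNDC5, the other isomerases and oxidase of the group, were not called in KD2 against NT, with log2 fold changes from -0.07 to 0.10. With NT replicate 2 left out, PDIA3 (-0.11 (adjusted p = 0.0124)) and ERO1A (-0.22 (adjusted p = 0.00852)) were called lower as well. PDIA3 was called lower in KDR than in NT (-0.21 (adjusted p = 0.0035)), in all 18 alternatives too. It was also called lower in KDR than in KD2 (-0.15 (adjusted p = 0.027)), a call lost in 4 of 18 alternatives. Of TXNDC5 exon bases, 61.1% overlap other genes, among them a read-through gene that shares its exons, so its low count is uncertain.

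**Figure D2:**
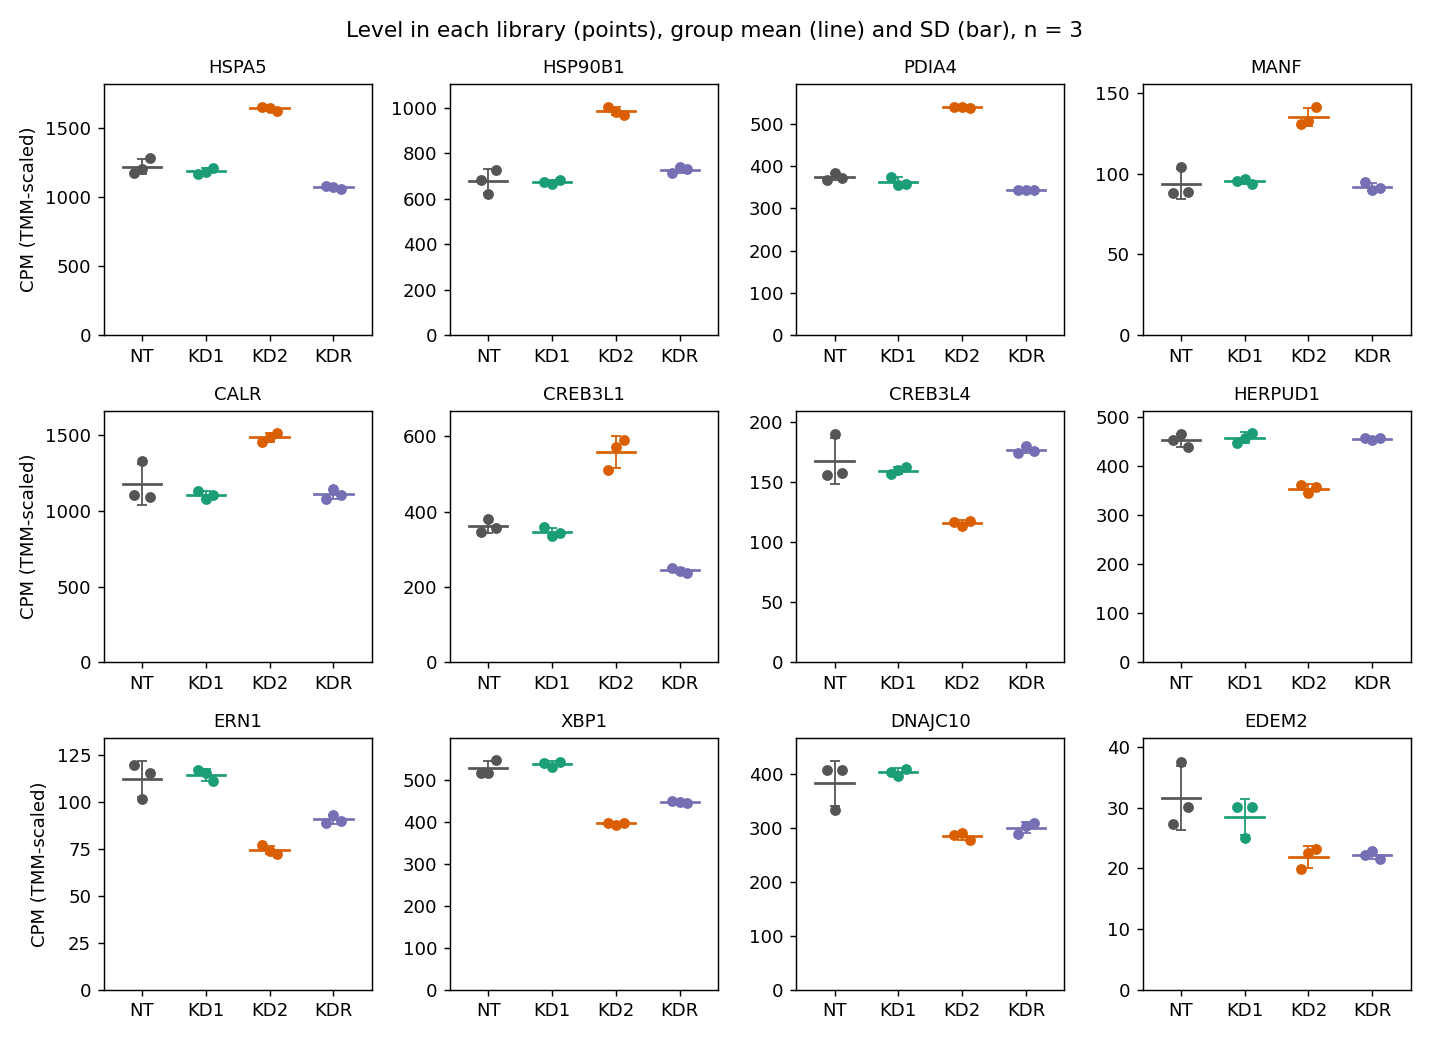
Level of 12 of the genes in each library (points, CPM on the y axis, from 0) for NT, KD1, KD2 and KDR (x axis), with the group mean as a line and the SD as a bar (n = 3). HSPA5, HSP90B1, PDIA4, MANF, CALR and CREB3L1 peak in KD2, CREB3L4 and HERPUD1 are lowest in KD2, and ERN1, XBP1, DNAJC10 and EDEM2 are lower in both KD2 and KDR than in NT.

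The sensors and their transcription factors did not follow the chaperones. ERN1 (IRE1, ENSG00000178607, chromosome 17, 64039080 to 64130819), the kinase and RNase that splices XBP1 mRNA, stood at 119.5, 102 and 115 CPM in NT, 117, 115 and 111 in KD1, 76.8, 73.7 and 72.4 in KD2 and 88.8, 93.1 and 89.9 in KDR. The KD2 libraries were the lowest and the KDR libraries the next lowest, with no overlap between KD2, KDR and the other groups. ERN1 fell in KD2 against NT, with -0.59 (95% interval -0.73 to -0.46, adjusted p = 1.7e-07), rose from KD2 to KDR by 0.29 (adjusted p = 0.0017) and stayed lower in KDR than in NT, with -0.31 (adjusted p = 1.0e-03).

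XBP1 (ENSG00000100219, chromosome 22, 28794555 to 28800597), the factor that ERN1 activates, stood at 516, 517 and 547 CPM in NT, 540.4, 531 and 542 in KD1, 398, 392 and 398 in KD2 and 449, 447 and 445 in KDR. The order of the groups was the same as for ERN1, again without overlap. The log2 fold changes were -0.41 (95% interval -0.51 to -0.32, adjusted p = 1.3e-07) in KD2 against NT, 0.18 (adjusted p = 0.0041) in KDR against KD2 and -0.24 (adjusted p = 3.2e-04) in KDR against NT. XBP1 was a gene with the ER stress element that fell in KD2, in contrast to HSPA5, HSP90B1, CALR, CANX, CRELD2 and PDIA6, which rose.

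ATF6 (ENSG00000118217, chromosome 1, 161766298 to 161977574), the sensor that is cut into a transcription factor, stood at 85.3, 88.1 and 85.9 CPM in NT, 82.4, 85 and 89.9 in KD1, 76.7, 69 and 76.1 in KD2 and 75, 79.4 and 75.8 in KDR. The KD2 libraries lay below the NT libraries and overlapped with KDR. It fell by a smaller amount than ERN1 and XBP1, with -0.23 (95% interval -0.36 to -0.09, adjusted p = 0.0079) in KD2 against NT, a call that was lost without KD2 replicate 2 (adjusted p = 0.0726). KDR against NT gave -0.17 with an adjusted p of 0.0498, and this call was lost in 15 of 18 alternatives, among them without any single KD1, KD2 or KDR library and without NT replicate 1 or 3 (adjusted p up to 0.162). Its relative ATF6B was not called in KD2 against NT (-0.06 (95% interval -0.23 to 0.10, adjusted p = 0.6)).

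CREB3L1 (OASIS, ENSG00000157613, chromosome 11, 46277662 to 46321409), a factor of the ATF6 type that is also released from the ER membrane, showed the largest fall of the 48 genes from KD2 to KDR. It stood at 347, 380.2 and 358 CPM in NT, 359, 337 and 343 in KD1, 511, 573 and 591 in KD2 and 251, 244 and 239 in KDR. The KD2 libraries lay above all others and the KDR libraries below all others. It rose by 0.63 (95% interval 0.51 to 0.74, adjusted p = 6.8e-09) in KD2 against NT, changed by -1.19 (95% interval -1.31 to -1.07, adjusted p = 1.2e-13) from KD2 to KDR, a 2.28-fold lower level, and KDR stood below NT by -0.57 (adjusted p = 7.7e-08).

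CREB3L4 (AIbZIP, ENSG00000143578, chromosome 1, 153967534 to 153974361), the family member known from prostate, moved in the opposite direction. It stood at 156, 190.0 and 158 CPM in NT, 156, 160.1 and 162 in KD1, 117, 114 and 118 in KD2 and 174, 179.7 and 176 in KDR. All KD2 libraries were lower than every other library, and NT and KDR overlapped. The log2 fold change was -0.53 (95% interval -0.67 to -0.40, adjusted p = 8.4e-07) in KD2 against NT and 0.61 (adjusted p = 1.6e-07) in KDR against KD2, while KDR against NT gave 0.07 (95% interval -0.06 to 0.21, adjusted p = 0.44). Without NT replicate 2, the highest NT library, KDR was called higher than NT by 0.17 (adjusted p = 0.00369). CREB3L2 was not called in any of these comparisons (KD2 against NT 0.06 (95% interval -0.06 to 0.18, adjusted p = 0.46)).

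In ER-associated degradation the adaptor and the lectins that pick chains for disposal split from one another. SEL1L (ENSG00000071537, chromosome 14, 81471547 to 81533853), the adaptor of the HRD1 ubiquitin ligase, stood at 244, 196 and 249.6 CPM in NT, 239, 238 and 240.2 in KD1, 278, 273 and 270.3 in KD2 and 204, 201 and 201 in KDR. The KD2 libraries were the highest of the 12, and NT replicate 2 was the lowest. SEL1L rose by 0.25 (adjusted p = 0.0043) in KD2 against NT, or by 0.15 (adjusted p = 0.00238) without NT replicate 2, and changed by -0.44 (95% interval -0.58 to -0.30, adjusted p = 1.8e-05) from KD2 to KDR. Without NT replicate 2, KDR against NT gave -0.30 (adjusted p = 1.25e-07). With all libraries it gave -0.19 (adjusted p = 0.041), a call lost in 12 of 18 alternatives, among them without NT replicate 1, NT replicate 3 or any single KD1, KD2 or KDR library (adjusted p up to 0.168). SYVN1, the ligase HRD1 itself, was not called (-0.04 (95% interval -0.18 to 0.10, adjusted p = 0.69)).

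EDEM2 (ENSG00000088298, chromosome 20, 35115364 to 35147336), a mannosidase that starts trimming of glycans for degradation, stood at 27.3, 37.6 and 30.2 CPM in NT, 30.2, 25 and 30.1 in KD1, 19.9, 22.5 and 23.3 in KD2 and 22.3, 22.8 and 21.6 in KDR. All KD2 and KDR libraries lay below all NT and KD1 libraries. It fell in KD2 against NT, with -0.54 (95% interval -0.76 to -0.31, adjusted p = 4.7e-04), and KDR was also below NT, with -0.51 (adjusted p = 0.0011), while KDR and KD2 differed by 0.03 (95% interval -0.21 to 0.26, adjusted p = 0.89).

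EDEM3 (ENSG00000116406, chromosome 1, 184690237 to 184754907), another mannosidase of the pathway, stood at 165, 126 and 177 CPM in NT, 157, 168 and 158 in KD1, 119, 127 and 114 in KD2 and 121, 127 and 127 in KDR. NT replicate 2 lay within the range of KD2 and KDR, and the other NT libraries lay above it. EDEM3 was called lower than in NT in KD2 (-0.37 (adjusted p = 0.0013)) and in KDR (-0.32 (adjusted p = 0.0064)). EDEM1 was not called in KD2 against NT (0.14 (95% interval 0.00 to 0.29, adjusted p = 0.11)).

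OS9 (ENSG00000135506, chromosome 12, 57693841 to 57728342), a lectin that delivers trimmed glycoproteins to the ligase, stood at 171, 196 and 168 CPM in NT, 166, 173 and 170.1 in KD1, 140.1, 146 and 152 in KD2 and 133, 147 and 141 in KDR. The KD2 and KDR libraries overlapped with each other and lay below NT and KD1. It was lower than in NT in KD2 (-0.29 (adjusted p = 9.3e-04)) and in KDR (-0.35 (adjusted p = 2.2e-04)), and 23.9% of its exon bases overlap other genes. ERLEC1, the related lectin, fell in KD2 (-0.24 (adjusted p = 0.005)) and rose from KD2 to KDR (0.35 (adjusted p = 1.9e-04)).

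HERPUD1, which organises the ligase at the membrane, stood at 453 ± 13.7 CPM in NT, 355 ± 8.54 in KD2 and 456 ± 2.14 in KDR, as mean ± SD of 3 libraries. It fell in KD2 (-0.35 (adjusted p = 2.1e-06)) and rose back in KDR (0.36 (adjusted p = 1.9e-06)), with KDR against NT at 0.01 (95% interval -0.09 to 0.11, adjusted p = 0.91). VCP, the ATPase that pulls chains out of the membrane, moved the same way with a smaller size (-0.26 (adjusted p = 5.4e-04) and 0.19 (adjusted p = 0.01)), and its second call was lost without KD2 replicate 1 or KDR replicate 2 (adjusted p up to 0.0586). Of the Derlin channel proteins, DERL2 rose in KD2 (0.31 (adjusted p = 0.0073)) and DERL1 was not called there (-0.10 (adjusted p = 0.2)). DERL1 was called lower in KDR than in NT (-0.24 (adjusted p = 0.004)), and this call was kept in all 18 alternatives.

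DERL3 (ENSG00000099958, chromosome 22, 23834503 to 23839128) had the largest fold change of the 48 genes but very few counted reads. Its raw counts were 3, 1 and 17 in NT, 3, 5 and 25 in KD1, 42, 25 and 25 in KD2, and 22, 36 and 31 in KDR. In CPM the libraries stood at 0.0932, 0.0331 and 0.648 CPM in NT, 0.106, 0.208 and 0.651 in KD1, 1.19, 0.868 and 1.04 in KD2 and 0.643, 1.16 and 1.13 in KDR, so that NT replicate 3 reached the lowest KDR library and KD2 did not overlap with NT. The log2 fold change was 2.05 (95% interval 0.58 to 3.52, adjusted p = 0.027) in KD2 and 1.96 (95% interval 0.49 to 3.43, adjusted p = 0.043) in KDR against NT. With NT replicate 3 left out, these came to 3.94 (adjusted p = 0.000531) and 3.84 (adjusted p = 0.00108). The first call was lost without NT replicate 1, NT replicate 2, KD2 replicate 1 or KD2 replicate 3 (adjusted p up to 0.105). The second was lost in 8 of 18 alternatives, among them without NT replicate 1 or 2, any single KD2 library, or KDR replicate 2 or 3 (adjusted p up to 0.145). Of the exon bases of DERL3, 77% overlap SMARCB1 on the opposite strand, and with this counting a read that touches exons of both genes is counted for neither. Its counts thus rest on the bases not shared with SMARCB1, and its level may be understated.

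In the translocon and exit group, no gene was called higher in KD2 than in NT. SEC61G (-0.42 (adjusted p = 3.8e-04)) and SEC61B (-0.26 (adjusted p = 0.011)), the small subunits of the channel through which chains enter the ER, fell, as did SSR1 of the translocon-associated complex (-0.17 (adjusted p = 0.036)), while the large subunit SEC61A1, SSR3 and the signal peptidase subunit SPCS3 were not called (-0.13, -0.04 and 0.06). The SSR1 call was lost in 10 of 18 alternatives, among them without NT replicate 1 or 3, KD1 replicate 1 or 2, KD2 replicate 2 or 3, or any single KDR library (adjusted p up to 0.189). The SEC61B call was lost without KD2 replicate 1 (adjusted p = 0.0713). SEC61G rose again from KD2 to KDR (0.30 (adjusted p = 0.0071)), a call lost without KDR replicate 3 (adjusted p = 0.0628).

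SEC24D (ENSG00000150961, chromosome 4, 118722823 to 118838683), a cargo adaptor of the COPII vesicles that leave the ER, stood at 97.6, 99.1 and 82.2 CPM in NT, 92.9, 101 and 91.9 in KD1, 77.5, 81.5 and 77.1 in KD2 and 71.1, 69.7 and 69.7 in KDR. Each KD2 library lay just below the lowest NT library, and the KDR libraries lay below KD2. It was lower than in NT in KD2 (-0.24 (adjusted p = 0.01)) and in KDR (-0.41 (95% interval -0.55 to -0.26, adjusted p = 1.4e-04)).

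WFS1 (ENSG00000109501, chromosome 4, 6269849 to 6303265) stood at 63.6, 80.2 and 58.8 CPM in NT, 65, 65 and 65.1 in KD1, 53.8, 65.2 and 63.7 in KD2 and 59.2, 52.4 and 56.1 in KDR. NT overlapped with KD2 and with KDR, and NT replicate 2 was the highest library. WFS1 was not called in KD2 against NT (-0.15 (95% interval -0.35 to 0.04, adjusted p = 0.23)). It was called lower in KDR than in NT (-0.27 (adjusted p = 0.035)), and this call was lost without NT replicate 2, KDR replicate 2 or KDR replicate 3 and in the fit of only these groups (adjusted p up to 0.149).

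The comparison of KDR with KD2 sets the libraries labelled as a rescue beside those of the knockdown they are labelled to rescue, with DHODH RNA at the levels given above. Of the 48 genes, 8 were called higher and 15 lower in KDR than in KD2, against 15.3% of all genes tested called higher and 17.1% called lower. Chaperones and cofactors had 8 of 9 genes lower and none higher, the lectins 2 of 3 lower, the disulfide enzymes 3 lower and 1 higher, the degradation genes 1 lower and 3 higher, the translocon group 1 higher, and the sensors and factors 1 lower and 3 higher. The median log2 fold change was -0.09 over the 48 genes and 0.016 over all genes tested. Without KD2 replicate 3, KDR replicate 1 or KDR replicate 2, 5 chaperones were called lower in place of 8. Without NT replicate 2 or 3, 3 translocon genes were called lower in place of none, and 1 without NT replicate 1. The higher translocon gene was lost without KDR replicate 3. The degradation genes had 2 lower without NT replicate 2 or KD2 replicate 2. The disulfide enzymes had 2 higher without NT replicate 2 and none without KD2 replicate 2 or 3 or KDR replicate 2 or 3. The calls of DNAJB11 (-0.28 (adjusted p = 0.043)) and CRELD2 (-0.21 (adjusted p = 0.041)) were lost without any single KDR or KD2 library, and also without any single KD1 library for DNAJB11 and without KD1 replicate 2 for CRELD2 (adjusted p up to 0.144 and 0.184). The comparison shares the KD2 libraries with that of KD2 and NT, so a gene that is high or low in KD2 by chance moves in opposite directions in the 2 comparisons.

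KDR against NT shares libraries with both. In it, 1 of the 48 genes was called higher and 19 lower, against 13% and 14.5% of all genes tested. The 1 higher gene was DERL3. The lower genes were 4 of 7 sensors and factors, 2 of 9 chaperones (HSPA5 and SDF2L1), 3 of 9 disulfide enzymes, 5 of 12 degradation genes, 4 of 7 translocon and exit genes, and WFS1. The median log2 fold change was -0.12 over the 48 genes and 0.0088 over all genes tested. Of the lower genes, SEC61A1 (-0.18 (adjusted p = 0.042)) lost its call in 12 of 18 alternatives, among them without NT replicate 2 or any single KD1, KD2 or KDR library (adjusted p up to 0.13). SSR3 (-0.21 (adjusted p = 0.018)) lost its call without NT replicate 1 or 3 or KDR replicate 1 or 3 (adjusted p up to 0.0997). Without NT replicate 2, 1 gene was called higher and 23 lower, with 4 chaperones in place of 2 and 2 lectins in place of none among the lower. The lower disulfide enzymes were 5 without NT replicate 1 or 3, and the lower translocon and exit genes 2 without KDR replicate 1 or 3.

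No difference between KD1 and NT was called. None of the 48 genes was called, and neither was any of the 19373 genes tested (0%), by edgeR or by DESeq2. The lowest adjusted p over all genes was 0.794. At an unadjusted p under 0.05 stood 3 of the 48 genes, HYOU1 (-0.12), P4HB (-0.13) and SPCS3 (0.22), and 1185 of all genes. For 47 of the 48 genes, all except DERL3, the 95% interval of the difference lay within 1.5-fold in either direction. The same held for 11314 of the 19373 genes tested, which include genes with low counts and wide intervals.

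The labelled knockdowns were compared with each other directly. KD2 against KD1 had 12 of the 48 genes higher and 19 lower, against 17.9% and 17.5% of all genes tested. HSPA5 differed by 0.47 (95% interval 0.38 to 0.56, adjusted p = 7.0e-09), PDIA4 by 0.57 (adjusted p = 9.5e-10), CREB3L1 by 0.69 (adjusted p = 1.5e-09), ERN1 by -0.62 (adjusted p = 8.2e-08) and XBP1 by -0.44 (adjusted p = 4.5e-08). DNAJC3 (0.14 (adjusted p = 0.14)) and CANX (0.13 (adjusted p = 0.078)) were not called in this comparison, but both were called higher without NT replicate 2 (adjusted p = 0.00196 and 0.000198). The KD2 libraries are shared with the comparison of KD2 and NT.

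By the arm taken to drive them, 11 of the genes were listed as targets of ATF6 (HSPA5, HSP90B1, CALR, HYOU1, PDIA4, PDIA6, CRELD2, SDF2L1, MANF, HERPUD1 and XBP1). As targets of spliced XBP1, 13 were listed (DNAJB9, DNAJC3, EDEM1, SEC24D, SEC61A1, SEC61B, SEC61G, SSR1, SSR3, SPCS3, SYVN1, DERL1 and DERL2). The other members, DNAJB11 among them, stand in neither list. Both lists were chosen with earlier results of these data known, so the counts depend on which genes were put in each list. In KD2 against NT, 8 of the 11 ATF6 targets were called higher and 2 lower (XBP1 and HERPUD1), with a median log2 fold change of 0.28, against 17.8% higher and 18.2% lower over all genes tested. Of the 13 XBP1 targets, 2 were called higher (DNAJC3 and DERL2) and 5 lower, with a median of -0.10. From KD2 to KDR, 9 ATF6 targets were called lower and 2 higher (median -0.42), and 1 XBP1 target was called lower and 1 higher (median -0.07), against 17.1% lower and 15.3% higher over all genes tested. Over the 18 alternatives, the ATF6 targets called in KD2 against NT were 7 to 8 higher and 2 lower, and the XBP1 targets 2 to 3 higher and 3 to 6 lower. The lowest XBP1 count of 3 came without NT replicate 1, KD2 replicate 2 or KD2 replicate 3 and in the fit of only these groups. From KD2 to KDR, 7 to 9 ATF6 targets and 1 to 5 XBP1 targets were called lower, with 5 of the latter without NT replicate 2, 4 without NT replicate 3 and 2 without NT replicate 1 or KD2 replicate 2. The higher XBP1 target was lost without KDR replicate 3. The difference between the arms was not tested. The lists overlap in function, and ATF6 and XBP1 can bind together.

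The genes with the ER stress element in the windows shown above can be set beside the others. Of the 8, 6 were called higher in KD2 than in NT (HSPA5, HSP90B1, CALR, CANX, CRELD2 and PDIA6), XBP1 was called lower, and ERO1B was not called, with a median of 0.26. Without NT replicate 2, ERO1B was called lower as well. HSPA5, HSP90B1, CALR, CRELD2, PDIA6 and XBP1 also stand in the ATF6 list above, so these counts are not separate from those. Of the 36 matched genes without the element, 8 were called higher and 15 lower, with a median of -0.07, beside 17.8% higher and 18.2% lower over all genes tested. From KD2 to KDR, HSPA5, HSP90B1, CALR, CANX, CRELD2 and PDIA6 were called lower and XBP1 and ERO1B higher. Of the 36 without the element, 8 were called lower and 6 higher, beside 17.1% lower and 15.3% higher over all genes tested. In this comparison the calls of CRELD2 and ERO1B were lost in 8 and 4 of 18 alternatives. PDIA4, MANF and CREB3L1 rose in KD2 with no exact match to the element in their windows. Among the genes with the ER stress element II, HYOU1 rose and HERPUD1 fell in KD2, and SDF2L1 was not called.

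**Figure D3:**
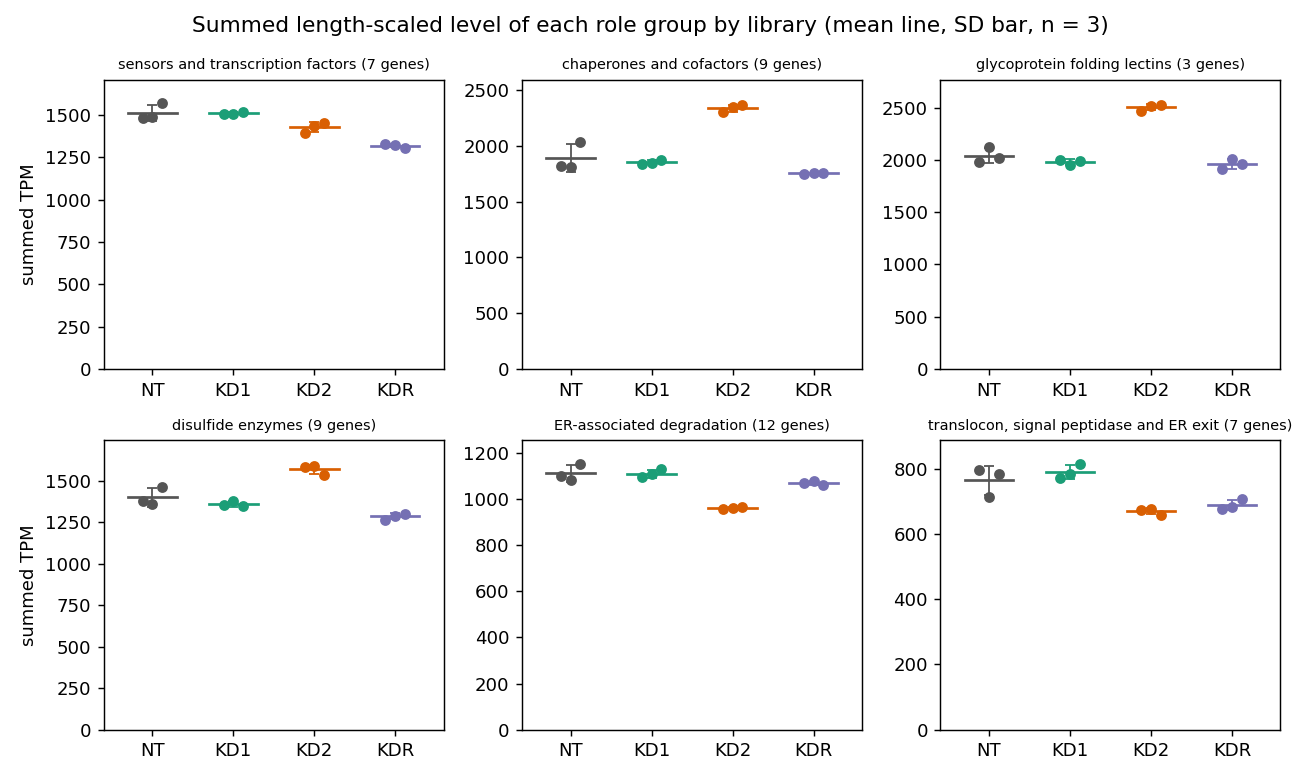
Summed level per length of each role group (y axis, TPM, from 0) in each library of NT, KD1, KD2 and KDR (x axis), with the group mean as a line and the SD as a bar (n = 3). The sums of chaperones, lectins and disulfide enzymes are highest in the KD2 libraries, and the sum of degradation genes is lowest there. The sums weigh on genes of high level and do not give the direction of each gene.

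Levels of different genes were compared per exon length, as transcripts per 1e6 (TPM), without a test. The length is that of all deposited exons of a gene together, which may exceed that of the transcript present. It was 13764 bases for CANX and 13092 for HSP90B1, against 3028 for XBP1 and 3298 for PDIA4. In CPM, CANX (1032), P4HB (832), HSP90B1 (676) and PDIA3 (632) stood above XBP1 (527) and PDIA4 (374) in NT. The order of genes, and the weight of each in the sums below, thus depend on this length. In NT the highest were CALR at 1686 ± 118 TPM, HSPA5 at 755 ± 62, XBP1 at 704 ± 52.1 and PDIA4 at 459 ± 14.5 (mean ± SD, n = 3). HSPA5 and XBP1 did not differ beyond their spread there. In KD2 they did, with HSPA5 at 997 ± 14.1 and XBP1 at 519.9 ± 3.01 TPM, the latter then below PDIA4 at 649.9 ± 5.62 and about the level of CREB3L1 at 552 ± 40.4. The lowest in NT were DERL3 at 0.284 ± 0.377, ERO1B at 8.85 ± 2.39 and TXNDC5 at 13.3 ± 1.27 TPM.

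Summed over the 9 chaperones, the libraries stood at 1821, 1809 and 2038 TPM in NT, 1840.2, 1844 and 1871 in KD1, 2303, 2343 and 2366 in KD2 and 1749, 1752 and 1756 in KDR. The KD2 libraries lay above and the KDR libraries below all others. The sum of the degradation genes was 1110.4 ± 36 for NT, 1109 ± 17.2 for KD1, 960.3 ± 3.88 for KD2 and 1067 ± 7.89 for KDR, so the KD2 group was the lowest. The translocon group summed to 763 ± 44.9 in NT, 669 ± 8.73 in KD2 and 688 ± 16 in KDR. Each KDR library lay below each NT library, though NT replicate 2 (712) lay close to KDR replicate 3 (706). The difference between these sums was not tested. The sensors and factors were lowest in KDR, at 1319.8 ± 11.1 against 1514 ± 48 in NT, and XBP1 and CREB3L1 make up most of that sum. Over all 48 genes the sum was 8762 ± 261 for NT, 8642 ± 60.8 for KD1, 9508 ± 82 for KD2 and 8113 ± 66.6 for KDR. The other sums weigh on a few genes too. Lectins summed to 2043 in NT and 2506 in KD2, of which CALR held 1686 and 2103. Disulfide enzymes summed to 1399 and 1569, of which PDIA4 held 459 and 650, while 2 of these 9 genes were called higher and 2 lower. Of the degradation sum, HERPUD1 held 362 in NT and 279 in KD2.

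**Figure D4:**
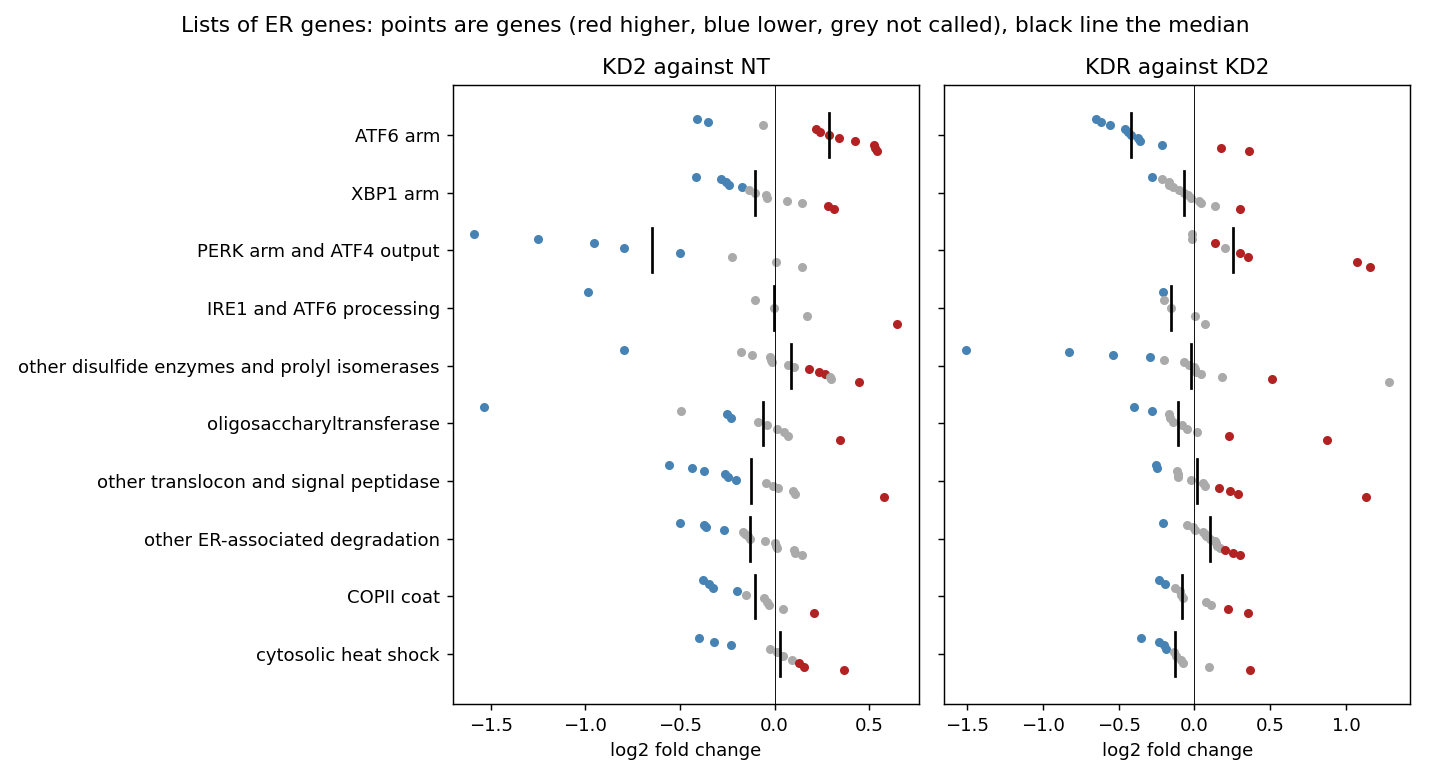
Log2 fold change (x axis) of the genes of the ATF6 and XBP1 arms and of 8 further lists (rows) in KD2 against NT and in KDR against KD2, with called genes in red or blue and the median of each list as a black line. The ATF6 arm has a median of 0.28 on the left and -0.42 on the right, and the list of the PERK arm and ATF4 output one of -0.65 and 0.25.

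Other genes of the secretory pathway were read from 8 further lists, whose counts stand beside 17.8% of all genes tested called higher and 18.2% lower in KD2 against NT, and 15.3% higher and 17.1% lower in KDR against KD2. Several of the counts lie near these shares. In the list of the PERK arm and ATF4 output, 5 of 8 genes were called lower in KD2 than in NT and none higher (median -0.65). CHAC1, which degrades glutathione, fell most, from 87.4 ± 9.09 to 29.1 ± 1.9 CPM (-1.59 (adjusted p = 3.6e-13)). The pseudokinase TRIB3 changed by -0.80 (adjusted p = 5.1e-10) and the stress factor DDIT3 (CHOP) by -1.25 (adjusted p = 8.4e-09). Without NT replicate 1 or 3, 1 gene of this list was called higher. From KD2 to KDR, 5 of the 8 rose and none fell, with CHAC1 at 1.16 (adjusted p = 1.2e-10), and 3 rose without KD2 replicate 1, KD2 replicate 2 or KDR replicate 2. EIF2AK3, which encodes PERK and was picked after its value was seen, was not called in KD2 against NT (-0.22 (95% interval -0.42 to -0.03, adjusted p = 0.067)).

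Of the genes that process ATF6 and act beside ERN1, 5 of 6 were tested. In KD2 against NT, CREB3, a factor of the ATF6 type, was called lower (-0.98 (adjusted p = 9.3e-11)), the protease MBTPS2 that cuts ATF6 was called higher (0.65 (adjusted p = 1.6e-05)), and MBTPS1, its partner, was not called (-0.10). CREB3 was as low in KDR, at 58 ± 3.21 CPM against 57.8 ± 2.86 in KD2 and 114 ± 8.13 in NT.

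Other disulfide enzymes and prolyl isomerases had 4 genes called higher and 1 lower of 14 tested in KD2 against NT, and 1 higher and 4 lower in KDR against KD2. The lower count in KD2 was 3 without NT replicate 2, and without KDR replicate 3, 2 were higher in KDR than in KD2. The prolyl isomerase FKBP11 fell in KD2 (-0.80 (adjusted p = 2.5e-06)). AGR2, an isomerase of mucin-secreting and prostate cells, stood at 113, 120.2 and 109 CPM in NT, 141, 137 and 133 in KD2 and 49.2, 47.9 and 47.6 in KDR, so that all KDR libraries lay far below the rest. Its change was 0.27 (adjusted p = 0.0011) in KD2 against NT and -1.51 (95% interval -1.64 to -1.38, adjusted p = 7.8e-15) from KD2 to KDR. The sulfhydryl oxidase QSOX1 moved in the same directions (0.23 (adjusted p = 0.0025) and -0.83 (adjusted p = 1.3e-10)).

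The oligosaccharyltransferase, which adds sugars to chains as they enter the ER, had 1 gene higher (2 without NT replicate 2) and 3 lower of 10 in KD2 against NT. The oxidoreductase subunit TUSC3 fell (-1.53 (adjusted p = 1.7e-12)) and was lower in KDR than in NT as well (-1.30 (adjusted p = 5.5e-11)), RPN1 fell (-0.25 (adjusted p = 0.0011)), and the catalytic subunit STT3B rose (0.34 (adjusted p = 8.9e-05)). Of 12 other translocon and signal peptidase genes, 1 was higher, TRAM1 (0.58 (adjusted p = 1.3e-05)), and 6 were lower, led by the signal receptor subunit SRPRA (-0.56 (adjusted p = 1.4e-07)) and the signal peptidase subunit SEC11C (-0.44 (adjusted p = 3.3e-06)). The lower count was 3 without KD2 replicate 1, and the higher count 2 without NT replicate 2.

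Of 15 other degradation genes, 4 were called lower in KD2 than in NT and none higher (6 and 1 without NT replicate 2), with UBE2J1 at -0.50 (adjusted p = 2.6e-06) and SELENOS at -0.36 (adjusted p = 1.5e-04). The COPII coat had 4 lower and 1 higher of 10, with SAR1B at -0.38 (adjusted p = 1.8e-04), SAR1A at -0.32 (adjusted p = 3.8e-04) and SEC13 at -0.35 (adjusted p = 0.0023), and its higher count was 2 without NT replicate 2 and 0 without NT replicate 3 or KD2 replicate 1. Cytosolic heat shock genes, which answer unfolded protein outside the ER, had 3 higher and 3 lower of 10, with DNAJB1 at 0.37 (adjusted p = 3.1e-06), HSPB1 at -0.40 (adjusted p = 1.1e-04) and HSP90AB1 at 0.16 (adjusted p = 0.0032).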

How the data were processed

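Poly-A RNA of 12 libraries was sequenced as read pairs, per the labels' protocols. The authors deposited raw counts per gene for each library, made with featureCounts 1.6.4 over exons of Ensembl release 111 on GRCh38, per the file headers, where neither strandedness nor pairing nor multi-mapping was set. FastQC, cutadapt and HISAT2 are named in the submitters' processing notes without versions. Ends of a pair may thus be counted singly, and reads of overlapping genes are not counted for either. The deposited exon length of each gene was used for TPM.

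Counts were fitted with edgeR 4.0.16 in R 4.3.3 (filterByExpr by group, TMM scaling, quasi-likelihood test over all 12 libraries), with Benjamini-Hochberg adjustment over 19373 genes and a threshold of 0.05. Intervals cover 95%. The 5 comparisons are those in the report. The fit was checked on simulated data for KD2 against NT, with 18760 genes tested. It recovered 72% of the genes changed 1.5-fold and 84% of those changed 2-fold, with 13 false calls. Smaller changes were not simulated. Alternatives were DESeq2 1.42.0, its size factors in edgeR, no filter, at least 1 CPM in 3 libraries, the 2 groups of a comparison alone, a block for the replicate number, and leaving out each library. Library values are given for HSPA5, ERN1, XBP1, ATF6 and the called genes among the 10 largest changes of members in KD2 against NT, KDR against KD2 and KDR against NT, and up to 3 genes of smallest adjusted p in KD2 against NT are named in each further list. Other members are given by counts, group values or fold changes. The members and lists were chosen with earlier results of these data known.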

Additional observations from a re-analysis of the deposited data

How the results depend on the processing

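The number of the 48 genes called stayed within 1.5 times of the reported one in all 18 alternatives of each comparison. Leaving out each library in turn gave 28 to 35 called genes for KD2 against NT, 17 to 29 for KDR against KD2, 15 to 24 for KDR against NT, 25 to 37 for KD2 against KD1 and 0 for KD1 against NT. The 6 other fits gave 30 to 32, 21 to 31, 14 to 21, 31 to 37 and 0. With the replicate block, 32, 23, 19, 32 and 0 genes were called. Replicate numbers show no pairing: deviations from the group means correlated between -0.0234 and 0.0394 for the 18 same-numbered pairs across groups, and 0 of these passed 0.1. No called gene changed direction. Leaving out a library ended the call of 6 of 32 genes in KD2 against NT, 7 of 23 in KDR against KD2, 7 of 20 in KDR against NT and 10 of 31 in KD2 against KD1, and the cause was not tested. Leaving out NT replicate 2 also added calls in comparisons without NT, among them DERL1, SPCS3 and SEC24D in KDR against KD2. The reported fit shares a single estimate of the spread per gene over all 12 libraries. In the fit of KDR and KD2 alone, DERL1, SPCS3 and SEC24D were called as well. DERL3 had 1 to 42 counts per library.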
